A study of Mus musculus with 10 samples.

Results

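The report follows 10 genes of glycolysis and lactate metabolism across the nuclei of mouse hippocampus. They are the hexokinase gene Hk1, the glucose-6-phosphate isomerase gene Gpi1, the phosphofructokinase genes Pfkl, Pfkm and Pfkp, the aldolase genes Aldoa and Aldoc, the enolase gene Eno2 and the lactate dehydrogenase genes Ldha and Ldhb. They were chosen by name, as the rows of the deposited gene list that carry these symbols. The 10 genes take 11 of the 24837 rows, because Aldoa has 2 rows whose counts were added. Single-nucleus RNA sequencing reads the RNA of nuclei caught in droplets, and a unique molecular identifier (UMI) is a tag that lets each captured molecule be counted only once. All 10 samples of the study belong to 1 group, the hippocampus of wild-type mice (C57B/6J, 4 to 7 months old, without stimulation), and RNASET2 control stands in the titles of 4 of them. Tissue had been frozen, and 7AAD, a dye that binds DNA, was used to sort the nuclei before loading. The authors' matrix pools 15661 barcodes, which carry 7 different suffixes. The nuclei of a suffix are called a barcode set below, and since the labels do not say which sample a suffix stands for, the whole matrix counts as 1 unreplicated sample. No p-values are therefore given, and the 95% intervals reflect counting error alone.

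Glycolysis splits glucose to pyruvate in the cytosol and yields ATP and NADH. Hexokinase traps glucose in the cell, glucose-6-phosphate isomerase rearranges it, phosphofructokinase commits it to breakdown, aldolase splits the sugar, and enolase makes the last intermediate before pyruvate. Lactate dehydrogenase then interconverts pyruvate and lactate. Most of these steps are served by isoenzymes from separate genes, known as the liver (Pfkl), muscle (Pfkm) and platelet (Pfkp) forms of phosphofructokinase, the muscle (Aldoa) and brain (Aldoc) forms of aldolase, and the muscle (Ldha) and heart (Ldhb) subunits of lactate dehydrogenase. In the brain, Aldoc is widely used as an astrocyte marker and Eno2 is known as neuron-specific enolase, and lactate is discussed as a fuel that glia pass to neurons.

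The sequences at the starts of the aldolase and lactate dehydrogenase genes are shown because the balance within these gene pairs is followed through the classes below. RefSeq windows on GRCm38.p6, from 250 bases before a transcript start to 50 after it, were found for all 10 genes, 18 windows in all. Each window was searched on both strands for ACGTG, the core letters bound by hypoxia-inducible factor, which regulates many glycolysis genes. Matches are in capitals and everything else is in lower case, and where the palindrome CACGTG occurs it counts on both strands, as 2 overlapping matches. The Ldha window lies at chr7:46845554-46845853 on the plus strand, inside the gene as GENCODE annotates it, the Ldhb window at chr6:142507908-142508207 on the minus strand, the Aldoa window at chr7:126799205-126799504 on the minus strand and the Aldoc window at chr11:78322823-78323122 on the plus strand. All are written 5′ to 3′ on the gene's own strand.
Ldha: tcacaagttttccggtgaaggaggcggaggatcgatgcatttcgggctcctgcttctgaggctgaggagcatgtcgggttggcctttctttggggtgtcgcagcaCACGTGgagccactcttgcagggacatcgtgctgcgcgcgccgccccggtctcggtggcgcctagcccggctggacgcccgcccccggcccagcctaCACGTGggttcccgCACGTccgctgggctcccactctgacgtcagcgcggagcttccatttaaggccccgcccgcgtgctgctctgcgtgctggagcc
Ldhb: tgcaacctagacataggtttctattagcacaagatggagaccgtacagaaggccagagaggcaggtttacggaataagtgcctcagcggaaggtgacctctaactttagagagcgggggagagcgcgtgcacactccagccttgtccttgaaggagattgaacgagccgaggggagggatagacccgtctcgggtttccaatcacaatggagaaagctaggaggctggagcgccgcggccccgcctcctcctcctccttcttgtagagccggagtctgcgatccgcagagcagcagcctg
Aldoa: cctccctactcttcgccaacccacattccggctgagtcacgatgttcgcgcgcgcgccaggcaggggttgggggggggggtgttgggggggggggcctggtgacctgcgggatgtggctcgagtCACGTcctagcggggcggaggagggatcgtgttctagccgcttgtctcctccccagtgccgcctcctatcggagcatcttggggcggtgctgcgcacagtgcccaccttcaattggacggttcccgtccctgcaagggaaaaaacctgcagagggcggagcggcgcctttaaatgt
Aldoc: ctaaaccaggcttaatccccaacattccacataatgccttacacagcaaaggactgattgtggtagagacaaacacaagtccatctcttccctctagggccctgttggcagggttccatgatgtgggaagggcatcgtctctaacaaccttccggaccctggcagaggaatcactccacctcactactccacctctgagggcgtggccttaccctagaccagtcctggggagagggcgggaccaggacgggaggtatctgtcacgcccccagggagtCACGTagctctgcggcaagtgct
Some genes have several windows, of which 1 is shown: Ldha and Aldoc each have another window with 0 matches, and Aldoa has another with 1 and another with 0. The Ldha window shown held 5 matches, and 1.73% of the 32851 windows of this length held 3 or more. The Ldhb window held 0, and the windows shown for Aldoa and Aldoc held 1 each. Over all windows of the 10 genes, 7 of 18 (38.9%) held a match, against 19.6% of the 32851. These 7 windows belong to Hk1, Pfkm, Aldoa, Aldoc and Ldha alone, and they are not separate. The Aldoa window shown overlaps that at chr7:126799129-126799428, and the 1 match of each is the same site, counted in both. The 2 shares are therefore given as counts of windows, and no enrichment is read from them. A match describes letters in a window and says nothing of binding.

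After filters, 15273 nuclei remained, of which 11020 fell in neuronal classes (72.2%, exact binomial interval 71.4 to 72.9) and 3450 in non-neuronal classes (22.6%, 21.9 to 23.3), with 111 Cajal-Retzius cells on neither side and 692 nuclei of 3 clusters unnamed. Classes were named from marker genes, by a rule that was set while looking at the clusters. The members and the rest of their pathway were kept out of the clustering, and each class name stands for nuclei like that type. Median depth was 5959 UMIs in neurons and 1682 in non-neuronal nuclei, and the barcode sets ran from 1012 to 8176. The sets were not alike, since set 7 held few neurons, set 6 few non-neuronal nuclei, and 678 of the 767 neurons of unnamed type, led by Ebf1 and Baiap3, came from set 1. Clusters joined in 1 class differed by set as well. Set 1 gave 603 of the 613 nuclei of an oligodendrocyte cluster led by Ptgds, but 38 of the 1458 of the largest one. It also gave 644 of the 654 nuclei of a granule cluster and 200 of the 207 of a CA1 cluster led by Arc. A class level by set can therefore rest on different clusters. Of the barcode sequences, 21 occurred in 2 sets. RNA set free from broken cells can add UMIs of a gene to nuclei that do not use it. Slc17a7, which excitatory neurons use to load glutamate, stood at 25.9 CPM (UMIs of a gene per 1e+06 UMIs of the class) in oligodendrocytes, which should lack it, against 231.5 CPM in excitatory neurons, and Snap25, a synaptic gene of all neurons, was in oligodendrocytes at 9.70% of its level in neurons. In astrocytes Slc17a7 stood at 44.6 CPM, from 14 UMIs, and Snap25 at 95.5 CPM, from 30 UMIs. The astrocyte gene Gja1 was in neurons at 0.0967% of its level in astrocytes.

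**Figure D1:**
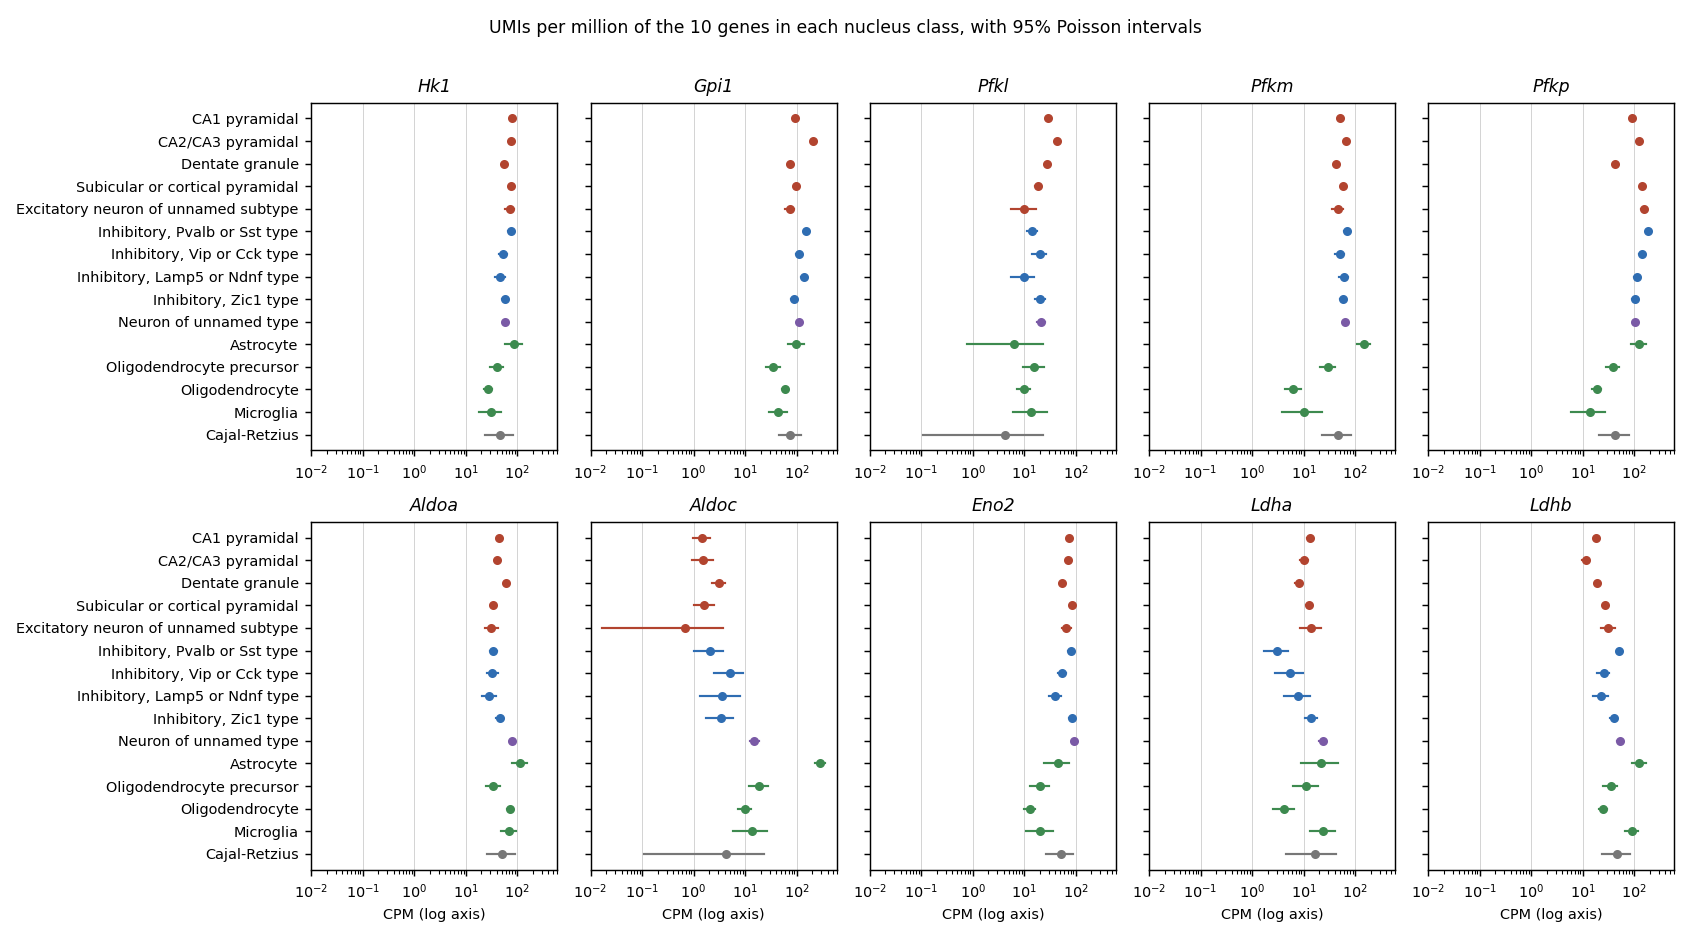
Each panel plots a gene's level in CPM on a log axis (horizontal) in 15 nucleus classes (vertical), as a point with its 95% Poisson interval; excitatory classes are red, inhibitory blue, the neurons of unnamed type purple, non-neuronal classes green and Cajal-Retzius cells grey. Gpi1 stood highest in CA2/CA3 neurons at 209 CPM, and Aldoc in astrocytes at 283 CPM.

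Hk1 encodes the main hexokinase of brain and spans 62268855 to 62379908 of chromosome 10, minus strand (coordinates here and below are GRCm38 with GENCODE M21). Its levels in neuron classes ran from 45.9 CPM in Lamp5 or Ndnf inhibitory neurons (36.1 to 57.4) to 78.1 in CA1 pyramidal neurons (74.4 to 81.9), with dentate granule neurons at 53.9 (50.4 to 57.6), so neuron classes differed beyond counting error. Astrocytes were at 85.9 CPM (56.6 to 125, from 27 UMIs), oligodendrocyte precursors at 40.4, microglia at 30.8 and oligodendrocytes at 26.7 (22.3 to 31.8). Ordered by level, none of its 14 pairs of neighbouring classes could be told apart by counting error, although the ends of the order differ 3.21-fold. Over barcode sets, Hk1 in neurons ran from 55.9 CPM to 99.3 with a median of 68.3, and in non-neuronal nuclei from 22.2 to 57.1 with a median of 33.0. Hk1os overlaps the gene on the other strand, and since strand handling in the counting is not given in the sources used here, reads of the 2 genes may be mixed.

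Gpi1, whose product turns glucose 6-phosphate into fructose 6-phosphate, spans 34201330 to 34230336 of chromosome 7, minus strand, and overlaps Gm26762 on the other strand. It had a clear peak in CA2/CA3 pyramidal neurons, at 209 CPM (201 to 217, from 2731 UMIs), which was 1.40 times the next class, the Pvalb or Sst inhibitory neurons at 149 (139 to 160; interval of the ratio 1.29 to 1.52). CA2/CA3 neurons of the 6 sets that held at least 50 of them were at 183.7 CPM at the lowest, 211.6 at the median and 280.5 at the highest, against 77.5, 91.8 and 112 in CA1 neurons of the same sets. The lowest CA2/CA3 value thus lay above the highest CA1 value. CA1 neurons as a whole were at 92.4 CPM and dentate granule neurons, the first relay of the hippocampus, at 72.9 (68.8 to 77.1). Among glia, astrocytes were at 98.7 CPM (67.0 to 140.0), oligodendrocytes at 59.4 (52.7 to 66.8), microglia at 44.5 and oligodendrocyte precursors at 34.7.

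The phosphofructokinase genes had profiles that differed from gene to gene. Pfkl (minus strand of chromosome 10, 77986947 to 78010083) was highest in CA2/CA3 neurons at 44.0 CPM (40.5 to 47.8), above CA1 neurons at 28.4 and dentate granule neurons at 27.6, and it was lower in subicular or cortical pyramidal neurons at 18.2 and in Pvalb or Sst neurons at 14.2 (11.2 to 17.8). Astrocytes had only 2 Pfkl UMIs, 6.37 CPM (0.771 to 23.0). Pfkm (plus strand of chromosome 15, 98092589 to 98132451) was led by astrocytes at 149.6 CPM (109.9 to 199, from 47 UMIs), 2.19 times (1.58 to 2.98) the next class. Of these 47 UMIs, 33 came from the 70 astrocytes of set 1, at 203 CPM, and the lead over neuron classes outside set 1 was not tested. Neuron classes lay between 42.2 CPM in dentate granule neurons and 68.3 in Pvalb or Sst neurons, and oligodendrocytes were lowest at 6.37 (4.29 to 9.09, from 30 UMIs). That is 11.6% of the neuron level (7.82 to 16.6), beside 14.2% for Slc17a7 (11.8 to 17.0) and 9.70% for Snap25 (8.72 to 10.8), and low expression of Pfkm in oligodendrocytes cannot be told apart from free RNA. Pfkp (minus strand of chromosome 13, 6579768 to 6648777) was highest in Pvalb or Sst neurons at 184 CPM (173 to 196) and stood at 141 in subicular or cortical pyramidal neurons and 91.2 in CA1 neurons (87.2 to 95.3). Astrocytes were among these levels at 121 CPM, from 38 UMIs. Dentate granule neurons were far below at 41.5 (38.5 to 44.8), a level shared with Cajal-Retzius cells at 42.3 (20.3 to 77.7), and oligodendrocytes at 18.5 and microglia at 13.7 closed the order. Pfkp in oligodendrocytes was at 17.7% of its neuron level, with an interval (14.2 to 21.9) above that of Snap25 and overlapping that of Slc17a7, and the part of free RNA in it was not tested. Senp1 overlaps Pfkm on the other strand and Gm26513 on the same strand, and Pitrm1 overlaps Pfkp on the other strand, so reads in the overlaps may be split.

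Aldoa spans 126795234 to 126800751 of chromosome 7, minus strand, and its 2 rows are this gene and a neighbouring entry of the same symbol that gave 1.47% of its UMIs. The gene was found in every class, at 111 CPM in astrocytes (77.6 to 155), 71.7 in oligodendrocytes (64.3 to 79.8), 68.5 in microglia and 60.9 in dentate granule neurons (57.2 to 64.8), and at 28.4 CPM in Lamp5 or Ndnf neurons at the low end. Fam57b overlaps Aldoa on the other strand. Aldoc (plus strand of chromosome 11, 78322968 to 78327781), by contrast, was concentrated in astrocytes at 283 CPM (227 to 349, from 89 UMIs), 15.2 times (9.55 to 25.3) the oligodendrocyte precursors at 18.6 that came next. Neurons of unnamed type were at 15.2 CPM (12.2 to 18.7), microglia at 13.7 and oligodendrocytes at 9.97 (7.33 to 13.3). Neuron classes with a named subtype were between 1.45 CPM in CA1 neurons (0.988 to 2.06) and 5.06 in Vip or Cck neurons. A UMI of Aldoc was seen in 43.4% of astrocytes and 2.26% of neurons, and with each nucleus thinned to 1000 UMIs in 28.6% of 112 astrocytes and 0.347% of 10953 neurons. Unthinned median depths were 2151 UMIs in astrocytes and 5959 in neurons.

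Eno2, the neuron-specific enolase gene (minus strand of chromosome 6, 124760053 to 124769673), was higher in every neuron class than in glia other than astrocytes. Its neuron classes lay between 39.8 CPM in Lamp5 or Ndnf neurons (30.8 to 50.7) and 91.1 in the neurons of unnamed type (83.5 to 99.2), with subicular or cortical pyramidal neurons at 84.5, CA1 neurons at 72.8 and dentate granule neurons at 53.3. Astrocytes were at 44.6 CPM from 14 UMIs (24.4 to 74.8), above Lamp5 or Ndnf neurons and not separable by counting error from neurons as a whole, which stood at 160% of them (95.5 to 293). Microglia were at 20.5 CPM, oligodendrocyte precursors at 20.2 and oligodendrocytes at 12.7 (9.71 to 16.4). The oligodendrocyte level was 17.8% of that in neurons (13.6 to 23.0), an interval above that of Snap25 (8.72 to 10.8) and overlapping that of Slc17a7 (11.8 to 17.0), and the part of free RNA was not tested. In neurons the sets ran from 58.0 to 105.7 CPM with a median of 73.2, and in non-neuronal nuclei from 5.11 to 21.5 with a median of 16.5. The lowest set of neurons was therefore well above the highest set of non-neuronal nuclei, which are mostly oligodendrocytes.

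Ldha (plus strand of chromosome 7, 46841475 to 46855627) rested on 1082 UMIs in all. It stood at 24.0 CPM in microglia (13.1 to 40.2, from 14 UMIs), 23.4 in neurons of unnamed type (19.6 to 27.6), 22.3 in astrocytes (8.96 to 45.9, from 7 UMIs), 13.2 in CA1 neurons (11.7 to 14.9) and 3.03 in Pvalb or Sst neurons (1.73 to 4.93, from 16 UMIs). None of its 14 neighbouring pairs of classes could be told apart by counting error. Ldhb (minus strand of chromosome 6, 142490249 to 142507957) had the opposite order between Pvalb or Sst neurons, at 51.2 CPM (45.3 to 57.7), and CA1 neurons, at 18.0 (16.2 to 19.9), but like Ldha it was high in the neurons of unnamed type, at 52.9 (47.2 to 59.1). CA2/CA3 neurons were at 11.4 CPM (9.65 to 13.4), the lowest of 15 classes. Its highest levels were in astrocytes at 124 CPM (88.3 to 169.7) and microglia at 89.0 (66.5 to 117). No gene overlaps Ldha, Ldhb, Aldoc, Eno2 or Pfkl in that annotation.

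The first comparison set neurons against non-neuronal nuclei. Hk1, Gpi1, Pfkl, Pfkm, Pfkp and Eno2, 6 of the 10 genes, exceeded their CPM of non-neuronal nuclei 2-fold or more, as did 19.4% of the 13741 genes with 100 or more UMIs over both sides. Aldoc was 2-fold or more below, as were 20.0% of those genes, so that 7 of the 10 were 2-fold apart in either direction, as were 39.4% of all genes. The median log2 ratio of the 10 was 1.06, beside -0.18 for all genes tested. Eno2 averaged 71.4 CPM in neurons and 16.4 in non-neuronal nuclei, a ratio of 4.36 (3.62 to 5.30). Pfkp was at 104 CPM in neurons and 26.3 in non-neuronal nuclei (3.96, 3.42 to 4.62), and Pfkm at 54.9 and 17.4 (3.15, 2.63 to 3.81). Pfkl (2.39, 1.90 to 3.04), Hk1 (2.12, 1.85 to 2.43) and Gpi1 (2.04, 1.84 to 2.27) passed 2-fold by less, and the lower bounds of their intervals did not reach it. Aldoc was at 3.01 CPM in neurons and 24.2 in non-neuronal nuclei, 8.05-fold lower (6.58 to 9.82). Of the 3450 non-neuronal nuclei 2542 were oligodendrocytes, and astrocytes did not share all of these differences. Neurons were at 80.0% of the astrocyte level for Hk1 (54.9 to 121), 86.0% for Pfkp (62.6 to 122) and 114% for Gpi1 (80.5 to 168). For Pfkm they were at 36.7% (27.5 to 50.0). Eno2 was at 160% (95.5 to 293) and Pfkl, from 2 astrocyte UMIs, at 413% (114 to 3414).

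The remaining genes of the first comparison, Aldoa, Ldhb and Ldha, were within 2-fold. Aldoa was at 46.1 CPM in neurons and 66.9 in non-neuronal nuclei (ratio 0.689, 0.626 to 0.761), Ldhb at 24.6 and 37.6 (0.655, 0.575 to 0.748), and Ldha at 11.5 and 8.41 (1.37, 1.05 to 1.81). In the 5 barcode sets that held 50 or more nuclei of both sides, each gene kept its direction, except Ldha, which kept it in 4. Neurons carried 3.85 times as many UMIs per nucleus, so on the scale of mean UMIs per nucleus every log2 ratio is 1.94 higher, the median of all genes is 1.76 instead of -0.18, and 9 of the 10 genes are above 0, with Aldoc the exception at -1.06. Aldoa and Ldhb therefore turn from lower to higher in neurons with that scaling, at log2 1.41 and 1.33. The count of 2-fold higher genes was 2 when doublets were kept or Leiden resolution 2 was used, settings that left the largest oligodendrocyte cluster unnamed (1103 and 1089 oligodendrocytes in place of 2542), and 3 with unnamed clusters placed in their best class.

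**Figure D2:**
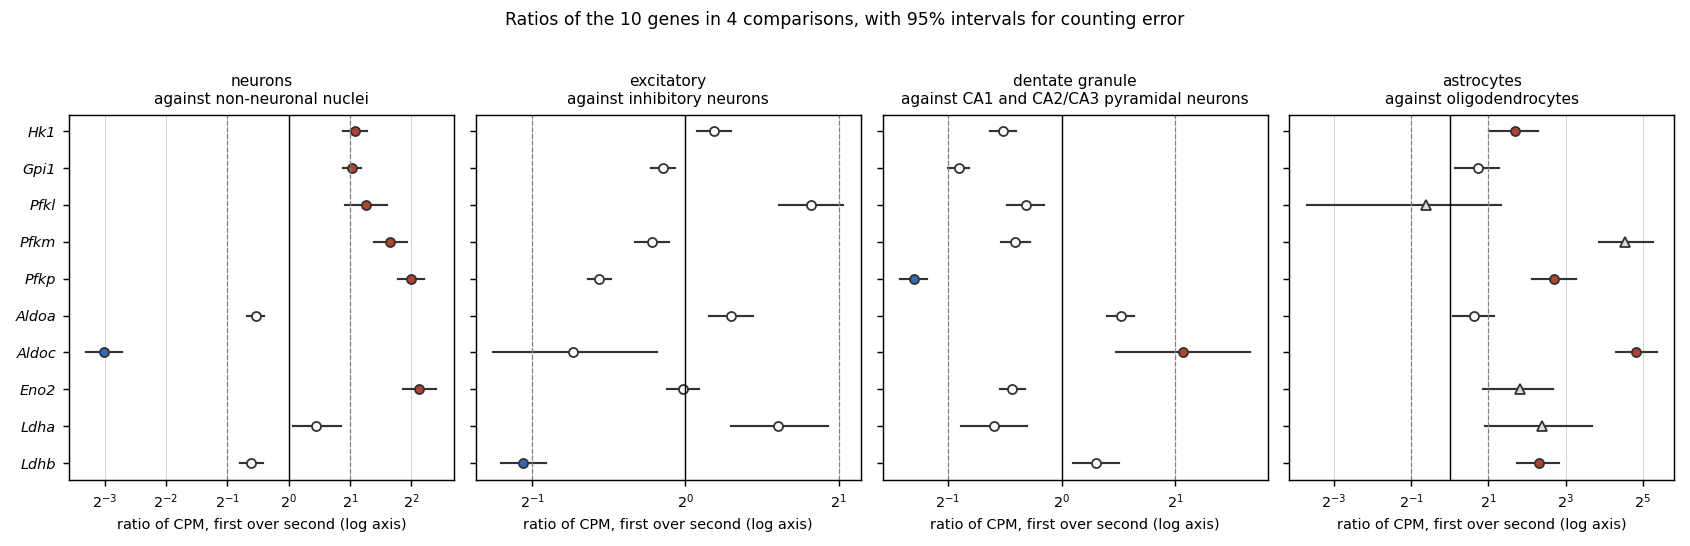
Each panel plots, for 1 comparison, the ratio of CPM of the first class over the second on a log axis (horizontal) for the 10 genes (vertical), with 95% intervals for counting error. Filled red and blue points lie 2-fold or more above and below 1, open circles are within 2-fold, grey triangles have under 100 UMIs over both sides, and dashed lines mark 2-fold; 6 genes are red in neurons and Aldoc is blue at a ratio of 0.124.

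The second comparison set 8534 excitatory neurons, which release glutamate, against 1719 inhibitory neurons, which release GABA, with mean depths of 7722 and 7558 UMIs. None of the 10 genes (0) was 2-fold or more higher in excitatory neurons, as 7.13% of 13143 genes were, and Ldhb alone (1) was 2-fold or more lower, as 7.85% were (15% in either direction). Ldhb was at 27.4, 13.9, 18.9, 18.9, 21.8 and 20.9 CPM in excitatory neurons of sets 1 to 6, against 62.1, 28.2, 36.2, 40.7, 41.9 and 33.1 CPM in inhibitory neurons. Every excitatory value by set was below every inhibitory value, and over all sets the levels were 19.1 and 39.7 CPM, 2.08-fold lower in excitatory neurons (1.87 to 2.31). By class, however, the sides overlapped. Pvalb or Sst and Zic1 neurons were at 51.2 and 39.6 CPM, but Vip or Cck and Lamp5 or Ndnf neurons at 25.3 and 22.3. Subicular or cortical pyramidal neurons were at 26.8 CPM and excitatory neurons of unnamed subtype at 31.4, above granule, CA1 and CA2/CA3 neurons. Without set 1 the difference was just under 2-fold (log2 -0.96), and so it was as a median over sets and with nuclei thinned to 1000 UMIs (log2 -0.86).

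Ldha went the opposite way, at 11.2 CPM in excitatory and 7.39 in inhibitory neurons (ratio 1.52, 1.23 to 1.90). Set 1 stood apart for this gene, with 14.7 CPM in excitatory and 18.6 in inhibitory neurons, and in the other 5 sets excitatory neurons were higher, at 9.004 to 17.1 CPM against 1.196 to 6.61 CPM in inhibitory neurons. Without set 1 the log2 ratio was 1.16, past 2-fold. Of the 256 inhibitory nuclei of set 1, 179 were of the Zic1 type, and whether that makeup bears on Ldha was not tested. Of the phosphofructokinase genes, Pfkl was higher in excitatory neurons (28.8 against 16.3 CPM, ratio 1.76, 1.53 to 2.04) and Pfkp lower (96.6 against 143 CPM, 0.677, 0.642 to 0.713), each in 6 of 6 sets. Aldoc, from 125 UMIs in excitatory and 41 in inhibitory neurons, had a ratio of 0.601 (0.419 to 0.877). Hk1 (1.14), Aldoa (1.23), Gpi1 (0.904), Pfkm (0.860) and Eno2 (0.988, 0.920 to 1.06) were close to even.

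The third comparison set 2415 dentate granule neurons against 4050 pyramidal neurons of CA1 and CA2/CA3, the next stations of the hippocampal circuit. Pfkp was 2-fold or more lower in granule neurons, as 9.36% of 12096 genes were, and Aldoc 2-fold or more higher, as 6.00% were (15.4% in either direction). Pfkp was at 25.4, 57.3, 43.4, 44.3, 35.2 and 33.6 CPM in granule neurons of sets 1 to 6, against 60.1, 129.9, 123, 93.5, 70.8 and 78.8 CPM in pyramidal neurons. No set of granule neurons reached the lowest set of pyramidal neurons, and the overall fold was 2.47 lower (2.27 to 2.68). Aldoc rested on 51 UMIs on each side, 3.12 CPM in granule and 1.48 in pyramidal neurons (2.10, 1.40 to 3.16), and at log2 0.60 without set 1 it was under 2-fold. Gpi1 was at 72.9 CPM in granule neurons and 137 in pyramidal neurons (0.533, 0.4998 to 0.568), and Hk1 (0.699), Ldha (0.663), Eno2 (0.740), Pfkm (0.754) and Pfkl (0.803) were also lower by less than 2-fold. Aldoa was higher (60.9 against 42.5 CPM, 1.43, 1.32 to 1.56), though without set 1 its log2 ratio was 0.13 in place of 0.52. Ldhb was higher as well (19.1 against 15.5 CPM, 1.24, 1.07 to 1.42). The pyramidal side pools classes that differed for some genes. Pfkl was at 27.6 CPM in granule, 28.4 in CA1 and 44.0 in CA2/CA3 neurons, and Ldhb at 19.1, 18.0 and 11.4. For both genes, granule and CA1 neurons could not be told apart by counting error. Gpi1 was at 92.4 CPM in CA1 and 209 in CA2/CA3 neurons. The other genes kept their direction against CA1 and CA2/CA3 neurons alike, Ldha within counting error for CA2/CA3. The median log2 ratio of the 10 genes was -0.42, beside 0.03 for all genes. Per nucleus, where granule neurons carried 0.798 times the UMIs, every log2 ratio is 0.33 lower, and Ldhb was level at -0.02.

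The fourth comparison set 129 astrocytes, which take up glucose from vessels and store glycogen, against 2542 oligodendrocytes, which make myelin. Of the 10 genes, 6 had at least 100 UMIs over both sides and 4 of these were 2-fold or more higher in astrocytes, as 13.6% of 6606 genes were, while 0 were 2-fold or more lower, as 20.2% were (33.8% in either direction). Aldoc was at 283 CPM in astrocytes and 9.97 in oligodendrocytes (28.4, 19.7 to 41.4), Pfkp at 121 and 18.5 (6.55, 4.35 to 9.70), Ldhb at 124 and 25.04 (4.96, 3.36 to 7.18) and Hk1 at 85.9 and 26.7 (3.21, 2.04 to 4.90). Gpi1 (1.66) and Aldoa (1.55) were within 2-fold. Per nucleus, where astrocytes carried 1.31 times the UMIs, every log2 ratio is 0.39 higher, and the median of all genes is 0.29. On that scale Gpi1 and Aldoa also pass 2-fold. Pfkm, with 47 UMIs in astrocytes and 30 in oligodendrocytes, was at 149.6 CPM in astrocytes and 6.37 in oligodendrocytes (23.5, 14.6 to 38.5), but fell short of 100 UMIs and was not counted. Set 1 gave 33 of the 47 astrocyte UMIs, and without it the log2 ratio of Pfkm was 4.11 in place of 4.55. Eno2 (3.50 from 14 and 60 UMIs) and Ldha (5.25 from 7 and 20 UMIs) were also below that minimum. Set 1, with 70 astrocytes and 652 oligodendrocytes, was the only set with 50 nuclei of both. Within it Aldoc was at 344.6 CPM in astrocytes and 25.9 in oligodendrocytes (13.3, 8.17 to 22.3). There the ratio was 2.58 for Ldhb (1.51 to 4.28), 11.9 for Pfkp (5.31 to 28.4) and 3.82 for Hk1 (1.46 to 9.47). Aldoa (129 and 169.9 CPM) and Gpi1 (80.0 and 89.1 CPM) were on the other side of even than in the pooled nuclei. With nuclei thinned to 1000 UMIs or a minimum of 500 UMIs, 0 genes were left past 2-fold with enough counts.

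Shares within a gene family do not depend on scaling to total UMIs, and they are compared between classes only. Among Ldha and Ldhb UMIs, Ldhb gave 68.1% in neurons (66.5 to 69.8, of 3058 UMIs) and 81.7% in non-neuronal nuclei (77.0 to 85.8, of 317), an odds ratio of 0.479 (0.350 to 0.646). Within neurons the estimate lay further from even, though the intervals of the odds ratios overlap. Ldhb gave 62.9% in excitatory neurons (60.8 to 65.1) and 84.3% in inhibitory neurons (81.2 to 87.1), an odds ratio of 0.316 (0.247 to 0.401), and without set 1 the log2 odds ratio was -2.13 in place of -1.66. By set the share was 65.1, 60.2, 64.4, 67.7, 56.0 and 58.7% in excitatory neurons, against 77.0, 85.1, 86.0, 91.1, 97.2 and 83.3% in inhibitory neurons, with no overlap between the sides. Pvalb or Sst neurons, which include the fast-spiking basket cells, were at 94.4% (91.1 to 96.8), CA1 neurons at 57.6% (53.7 to 61.4) and CA2/CA3 neurons at 52.8% (46.8 to 58.8). Other classes of the 2 sides lay closer together. Vip or Cck neurons were at 82.1% (70.8 to 90.4), Lamp5 or Ndnf at 74.0% (59.7 to 85.4) and Zic1 at 73.7% (67.2 to 79.5). Subicular or cortical pyramidal neurons were at 67.8% (63.7 to 71.7) and excitatory neurons of unnamed subtype at 69.1% (56.7 to 79.8). Dentate granule neurons were at 70.5% (66.0 to 74.7) against 56.2% in pyramidal neurons of CA1 and CA2/CA3 (odds ratio 1.86, 1.46 to 2.39). Astrocytes at 84.8% (71.1 to 93.7) and oligodendrocytes at 85.5% (78.5 to 90.9) could not be told apart (odds ratio 0.944, 0.350 to 2.85).

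**Figure D3:**
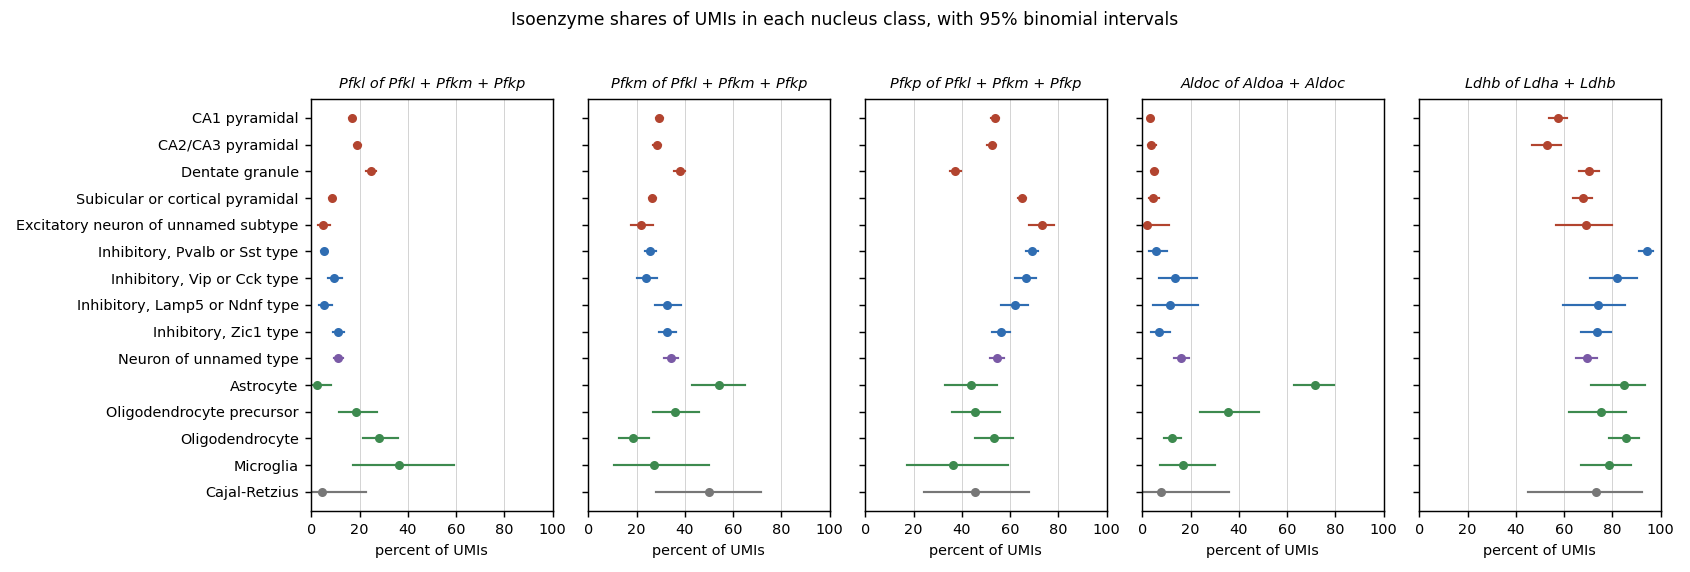
Each panel plots the percent of a gene family's UMIs that come from the named isoenzyme gene (horizontal) in 15 nucleus classes (vertical), with 95% binomial intervals and the class colours of the plot of levels by class. The Ldhb share runs from 52.8% in CA2/CA3 to 94.4% in Pvalb or Sst neurons, and the Aldoc share reaches 71.8% in astrocytes.

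Among Aldoa and Aldoc UMIs, Aldoc gave 6.13% in neurons (5.42 to 6.90, of 4160) and 26.6% in non-neuronal nuclei (23.2 to 30.2, of 628), an odds ratio of 0.180 (0.144 to 0.226). Astrocytes stood at 71.8% (63.0 to 79.5), oligodendrocyte precursors at 35.4% (23.9 to 48.2), the neurons of unnamed type at 16.1% (13.1 to 19.4) and oligodendrocytes at 12.2% (9.11 to 15.9), and the odds ratio of astrocytes over oligodendrocytes was 18.3 (10.8 to 31.0). Among phosphofructokinase UMIs, Pfkp gave 54.2% in excitatory and 64.8% in inhibitory neurons (odds ratio 0.645, 0.592 to 0.702), Pfkl 16.1% and 7.40% (2.41, 2.07 to 2.81), and Pfkm 29.6% and 27.8% (1.09, 0.995 to 1.196). Pfkp gave 37.3% in dentate granule neurons against 53.1% in pyramidal neurons, Pfkm 37.9 against 29.1%, and Pfkl 24.8 against 17.8%. The Pfkm share was 54.0% in astrocytes (43.0 to 64.8) against 18.4% in oligodendrocytes (12.8 to 25.2), an odds ratio of 5.21 (2.81 to 9.68). The mix also moved with the barcode set. In excitatory neurons Pfkp gave 29.95, 42.4 and 41.3% in sets 1, 5 and 6, and 64.1, 61.5 and 56.9% in sets 2, 3 and 4, a wider range than that between the 2 kinds of neuron within any of the 6 sets.

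Barcode set 1 was the highest of the sets for Aldoa, Aldoc, Ldha and Ldhb in neurons as a whole, in CA1 and in CA2/CA3 neurons. Aldoa in neurons ran from 27.9 CPM in set 2 to 86.7 in set 1, with a median of 45.7, and in oligodendrocytes from 34.5 CPM in set 2 to 169.9 in set 1. Aldoc in neurons was at 9.16 CPM in set 1 and at 0.897 to 2.20 in the other 5 sets. Ldhb in oligodendrocytes was at 54.9 CPM in set 1 and at 7.42 to 40.2 in the other sets. Pfkp went the other way, with its lowest level in set 1 in neurons (67.6 CPM, against 88.0 to 129.8 in sets 2 to 6). For Hk1 and Eno2 in neurons the highest set was set 5. What sets the barcode sets apart (animal, preparation or sequencing) cannot be told apart here. The clusters that make up a class also differed between sets, and their part in these values was not tested.

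**Figure D4:**
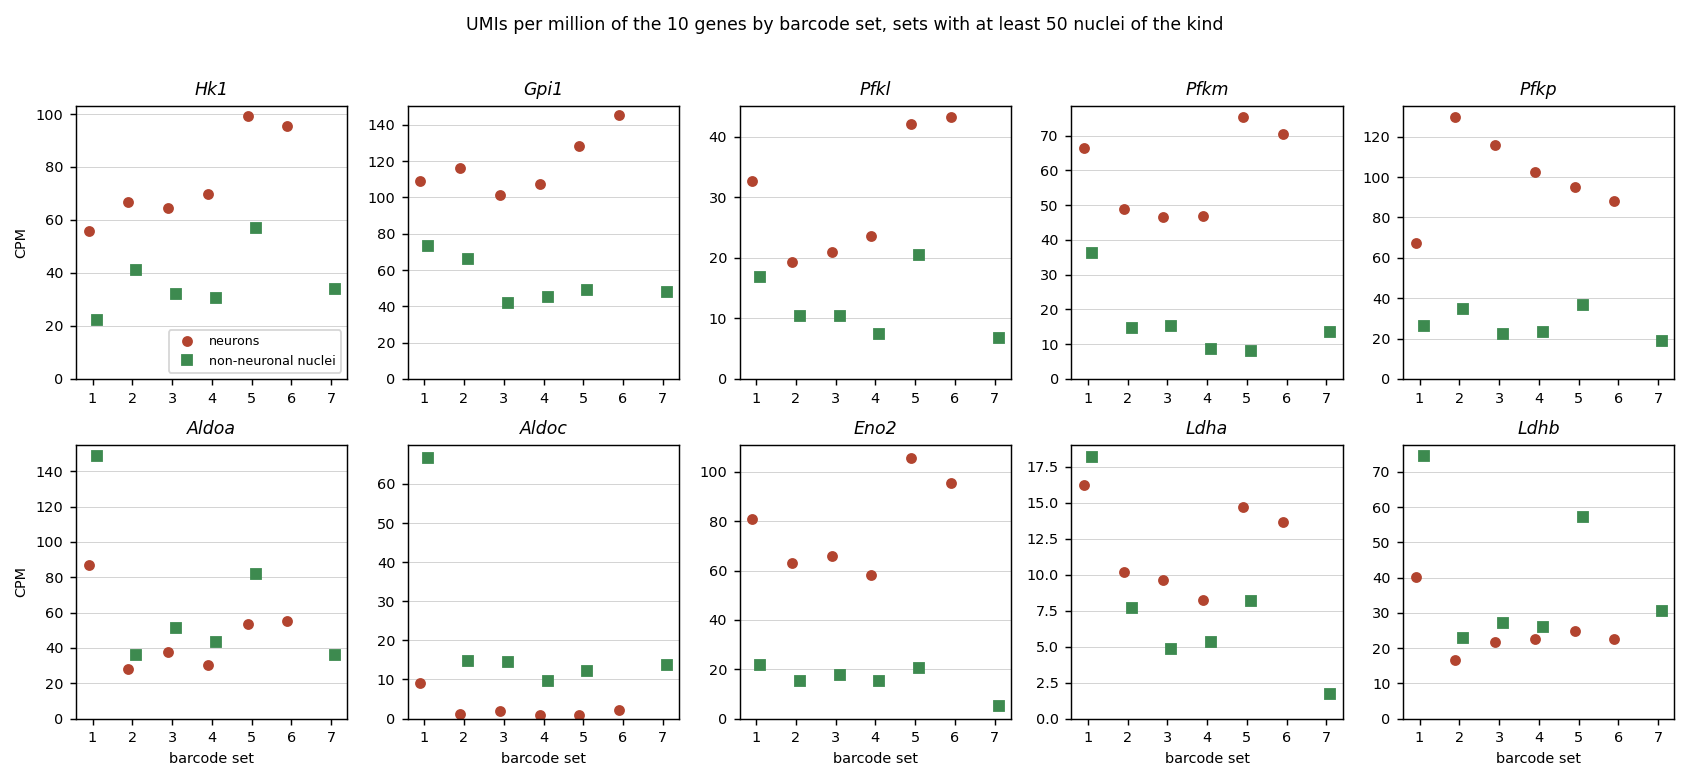
Each panel plots a gene's level in CPM (vertical) against the barcode set (horizontal), with red circles for neurons and green squares for non-neuronal nuclei, in sets with at least 50 such nuclei. Set 1 stands highest for Aldoa, Aldoc, Ldha and Ldhb on both sides, with Aldoc at 66.6 CPM in its non-neuronal nuclei.

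The rest of the pathway was followed through 42 further genes of glucose uptake, glycolysis, lactate transport, pyruvate entry to mitochondria and side branches. Of 36 with at least 100 UMIs over both sides, 4 were 2-fold or more higher in neurons than in non-neuronal nuclei and 8 were 2-fold or more lower, beside 19.4 and 20.0% of all genes, with a median log2 ratio of -0.23 beside -0.18 for all genes. The glucose transporters were split. Slc2a3, the neuronal transporter, was at 93.4 CPM in neurons and 28.0 in non-neuronal nuclei (3.34, 2.89 to 3.87), while Slc2a1, the transporter of vessels and glia, was 8.26-fold lower in neurons. Hkdc1, which rested on 3 non-neuronal UMIs, and the glycogen synthase gene Gys1 (2.05) were also higher. Hk2, the insulin-responsive hexokinase, was 56.3-fold lower (0.590 against 33.2 CPM), Bpgm 8.89-fold, the pyruvate kinase gene Pkm 2.11-fold, the lactate transporter gene Slc16a3 2.44-fold, the pyruvate dehydrogenase kinase gene Pdk2 2.29-fold, Gpd1 2.83-fold and G6pdx 2.87-fold. Slc16a7, the neuronal lactate transporter, was at 145 CPM in neurons and 179 in non-neuronal nuclei (0.808), Slc16a1 at 0.609, Gapdh at 1.32 (0.773 to 2.46, from 14 non-neuronal UMIs), Pgk1 at 0.793 and Tpi1 at 1.23. Pdk4 had 3 UMIs in neurons and 93 in non-neuronal nuclei, under the minimum.

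Among 35 such genes set between excitatory and inhibitory neurons, 4 passed 2-fold upward (7.13% of all genes did), Hkdc1 (4.62), the lactate transporter gene Slc16a1 (2.37, 1.82 to 3.14), and the glycerol phosphate dehydrogenase genes Gpd1 (2.55) and Gpd2 (2.04), and 1, the D-lactate dehydrogenase gene Ldhd, was 2.23-fold lower (7.85% of all genes were 2-fold lower). Slc16a7 was at 1.69 (1.59 to 1.79), and Slc2a3 (1.08), Slc2a1 (0.693), Tpi1 (0.9503), Gapdh (0.675), Pgk1 (0.780) and Pkm (1.01) were within 2-fold. Between dentate granule and pyramidal neurons, 0 of 32 passed 2-fold upward and 5 passed it downward, beside 6.00 and 9.36% of all genes. These were Pfkfb3, which makes the activator of phosphofructokinase (6.78 against 34.2 CPM, 5.04-fold), its relative Pfkfb4 (2.05-fold), Hkdc1 (3.37-fold), Slc16a1 (2.59-fold) and Gys1 (2.15-fold), while Slc16a7 was at 1.57, and Slc2a1 (1.15), Slc2a3 (0.892), Tpi1 (1.05), Gapdh (0.731), Pgk1 (0.858) and Pkm (1.08) were closer to even. Between astrocytes and oligodendrocytes, 5 of 20 passed 2-fold upward, where 13.6% of all genes did, with the brain glycogen phosphorylase gene Pygb at 258 against 22.5 CPM (11.5, 8.48 to 15.5) in front, then Tpi1 (3.71), Pdk2 (3.69), Pdhb (2.24) and Mpc2 (2.01). The 4 of 20 that passed it downward, where 20.2% of all genes did, were Slc16a7 (15.9 against 197 CPM, 12.4-fold), Gpd1 (3.75-fold), Pdk3 (3.37-fold) and Bpgm (3.28-fold). Slc2a1 (1.96), Pgk1 (1.5), Pkm (0.658) and Slc16a1 (0.594) were within 2-fold there, and Slc2a3, Gapdh and Pdk4 had too few UMIs to be counted.

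Across 15 classes of at least 50 nuclei, the members with the highest Pearson r of log2(CPM + 5) were Hk1 and Pfkm (0.87, Spearman rho 0.70), and those with the lowest were Pfkl and Ldhb (r -0.60, rho -0.49). By rho the highest pair was Gpi1 and Pfkm (0.88, r 0.64) and the lowest Pfkp and Aldoa (-0.50, r -0.42). Hk1, Pfkm, Pfkp and Eno2 formed a group with r of 0.75 to 0.87 between any pair. Among all other genes with at least 1000 UMIs, the 3 most like each member are given in order of r. For Hk1 these were Ppargc1a (0.93), a coactivator of mitochondrial genes, Drp2 (0.90) and Ssx2ip (0.90), and for Gpi1 they were Nrip3 (0.86), Cluh (0.85) and Lekr1 (0.84). Pfkl was followed by Smc2 (0.86), Dhx33 (0.83) and Pip5k1a (0.83), Pfkm by Acsl6 (0.96), Fmn2 (0.94) and Wnk2 (0.94), and Pfkp by Rpgrip1l (0.93), Sod2 (0.92) and Bdh1 (0.92). Aldoa went with Nprl3 (0.94), Tcp1 (0.92) and Serinc1 (0.91). Aldoc went with Glud1 (0.96), the glutamate dehydrogenase gene, Clu (0.94), which encodes the secreted protein clusterin, and Tprkb (0.94). Eno2 was paired with Gm1043 (0.94), Ccdc30 (0.93) and Wdr78 (0.92), Ldha with Rsph3b (0.88), Senp8 (0.81) and Ube2r2 (0.78), and Ldhb with Atp5c1 (0.92), a subunit of the mitochondrial ATP synthase, Dennd4c (0.90) and Fam168b (0.89). The 15 points share their libraries and differ in depth, and these values describe them only.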

How the data were processed

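The deposited matrix holds raw UMI counts per gene and barcode, made by the authors with Cell Ranger 4.0.0 per the file headers and the submitters' processing notes, which name the builds mm10 and GRCm38; strand use in counting is not given in the sources used here. Barcodes with at least 500 UMIs, 300 genes and under 5% mitochondrial UMIs were kept (15553 of 15661; 101 barcodes had under 500 UMIs). Scrublet in scanpy 1.11.5 marked 280 doublets, which were removed; in sets 2, 5 and 7 it marked 0.212, 0.405 and 0.450% and did not work there. Nuclei were clustered on 2000 variable genes plus the markers, without the members and pathway list (30 components, 15 neighbours, Leiden resolution 1 with leidenalg 0.10.2, Python 3.11.15), and the 30 clusters were named from marker lists. UMIs were summed per class and divided by total UMIs (CPM), with exact Poisson, conditional-binomial (ratios) and Clopper-Pearson (shares) 95% intervals from scipy 1.17.1. The barcode sets held 1305838 to 26207554 UMIs. A gene needed 100 UMIs over both sides to be counted as 2-fold apart. The 10 members were named in every comparison; of the 42 pathway genes, those 2-fold apart and a few transport and core-pathway genes chosen by role. For likeness, the genes with the highest Pearson r were named. The ratio procedure was run on simulated Poisson counts drawn at the real totals. That simulation holds no variation between nuclei, barcode sets or animals, so it does not tell how the intervals hold under such variation. Members and lists were chosen with earlier results of these data known, and the rule that names clusters was set while looking at them. The 692 nuclei of unnamed clusters were left out of the comparisons, and protein sequences were not used here. Some genes are counted in the pathway list but not reported here by name. Alternatives covered UMI minimum, doublets, naming, resolution, barcode sets, scaling, thinning and count minimum; using 1 Aldoa row alone and leaving out the neurons of unnamed type were added after seeing the data.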

Additional observations from a re-analysis of the deposited data

Results flagged for a closer look

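Of 30 groups of values by barcode set (10 genes in neurons, in non-neuronal nuclei and in all barcodes of at least 500 UMIs), 6 had a set far from the others. Chance flags about 1 in 20 single groups. The 30 groups are not separate, because all barcodes include the neurons and the non-neuronal nuclei, so the 6 cannot be set against that rate. All 6 were set 1. Aldoc in neurons was at 9.16 CPM in set 1 and at 0.898 to 2.20 in the other sets, and Ldhb in neurons at 40.3 CPM, with the others at 16.7 to 24.8. In non-neuronal nuclei, Pfkm was at 36.3 CPM in set 1 and at 8.16 to 15.2 in the others, and Aldoc at 66.6 CPM, with the others at 9.54 to 14.6. In all barcodes, Aldoc was at 13.9 CPM in set 1 and at 2.001 to 7.06 in the others, and Ldhb at 43.2 CPM, with the others at 17.5 to 27.7. Set 1 also held 70 of 129 astrocytes and 678 of 767 neurons of unnamed type, whose part in these values was not tested.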

How the results depend on the processing

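Of 847 values under alternative settings, 731 stayed close to the reported value, 116 moved and 0 changed sign among called values. The 14 gene calls kept their direction in every alternative run. Close means inside the counting interval of the reported value or, for counts of genes, near the reported count. That interval is wide for genes with few UMIs, so a close value can lose its call. Aldoc in granule against pyramidal neurons was close at log2 0.60 without set 1 (1.07 as reported). Counts called close can differ as well. Per nucleus, Aldoa, Ldha and Ldhb joined the genes 2-fold higher in neurons than in non-neuronal nuclei. Gpi1 and Aldoa likewise joined those higher in astrocytes than in oligodendrocytes. Settings that leave out 1 set share most of their nuclei. In neurons against non-neuronal nuclei, the 6 genes higher became 2 with doublets kept, 3 with unnamed clusters in their best class and 2 at Leiden resolution 2; the 1 gene lower became 2 with doublets kept and 2 at resolution 2, and 0 with a minimum of 500 UMIs. The log2 odds ratio of the Aldoc share, -2.47 as reported, was -2.85 with doublets kept and -2.85 at resolution 2, -2.82 without set 1 and -2.91 without the neurons of unnamed type, the last chosen after seeing the data. In excitatory against inhibitory neurons, the 0 genes higher became 1 as a median over sets and 1 without set 1, and the 1 lower became 0 in both and 0 with thinned nuclei. The Ldhb share's log2 odds ratio was -2.13 without set 1 (-1.66 as reported), and that of the Pfkp share -0.77 as a median over sets and -0.82 with thinned nuclei (-0.63 as reported). In dentate granule against pyramidal neurons, the 1 gene higher became 0 with doublets kept, at resolution 2, without set 1, 2, 3, 4 or 6, per nucleus, with thinned nuclei and with a minimum of 500 UMIs, and the 1 lower became 2 per nucleus. In astrocytes against oligodendrocytes, the 4 higher became 1 with doublets kept and 1 at resolution 2, 2 without set 1, 0 with thinned nuclei or a minimum of 500 UMIs, and 7 with 1 UMI on each side sufficing; the 0 lower became 1 with unnamed clusters in their best class. Fewer nuclei or UMIs under a minimum, by construction, remove genes from these counts; other causes were not tested. No paired analysis was possible because the barcodes carry no sample or replicate label. Depth limits the astrocyte values, with 129 nuclei, and the Aldoc values in neurons, with 255 UMIs.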

Other observations

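The 692 nuclei of 3 clusters that received no class name were in no comparison. The largest, with 517 nuclei and a median of 5161 UMIs, was led by genes known from microglia, Inpp5d and Siglech among them. Its best class by markers was oligodendrocyte, with 3 of 9 markers high, but microglia markers were raised as well. The setting that put unnamed clusters in their best class counted these 517 nuclei as oligodendrocytes. The other unnamed clusters held 120 nuclei with dentate granule and oligodendrocyte markers and 55 nuclei with neuronal and Cajal-Retzius markers. The vascular class of 27 nuclei was too small for the levels by class.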
